A study of Homo sapiens with 6 samples.

Results

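Long noncoding RNAs (lncRNAs) that are known to stay, wholly or in part, in the nucleus were followed through freeze-drying of human B-lymphoblastoid cells. The 6 lncRNAs MALAT1, NEAT1, TUG1, KCNQ1OT1, MIAT and OIP5-AS1 were chosen by gene symbol, and all 6 were found, each at 1 locus, among 23284 gene symbols. The cells were the GM12873 line, a B-lymphoblastoid line from 1 donor. The 3 control samples were washed cells lysed directly in Trizol, and the 3 lyophilized samples were cells dried in 0.1 M trehalose in PBS and kept for 2 weeks at room temperature before lysis. Each lyophilized sample is paired by its label with 1 control, so that pairs 1 to 3 hold 1 sample of each kind. Drying, trehalose and storage differ between the groups together and cannot be told apart. RNA was measured as FPKM (fragments normalized to transcript length and library size) in poly(A)-selected, single-end libraries of 75 bases. Nuclear and cytoplasmic RNA were not separated, so the nuclear location of these lncRNAs was not measured here.

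MALAT1 lies in nuclear speckles, bodies rich in splicing factors, and NEAT1 is the RNA scaffold of paraspeckles, bodies built on RNA and a set of RNA-binding proteins. KCNQ1OT1 is the imprinted antisense transcript of the KCNQ1 locus, which silences neighbouring genes in cis with the help of histone methyltransferases. MIAT accumulates in nuclear bodies of its own, TUG1 is found in both nucleus and cytoplasm and was first described in the retina, and OIP5-AS1 (Cyrano) is also known from the cytoplasm, where it binds the microRNA miR-7.

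Poly(A) selection captures an RNA by a run of A at or near its end, so the 3′ ends bear on which of these transcripts a library holds. The last 30 bases of each record, read 5′ to 3′ from the GRCh37 (hg19) genome on the transcript's strand, are shown with any polyadenylation signal in capitals.

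MALAT1, chr11:65273910-65273939 on the plus strand: ttttgtgtAATAAAaatggagaagctctaa
NEAT1, chr11:65193974-65194003 on the plus strand: AATAAAgtttgagttctaaactcattagaa
TUG1, chr22:31375351-31375380 on the plus strand: ttattttaAATAAAgaatttttaaaattaa
MIAT, chr22:27072411-27072440 on the plus strand: tttgctATTAAAaatcaattcacgctggaa
OIP5-AS1, chr15:41591766-41591795 on the plus strand: acctttatttatgcttcttgtgagtagaga
KCNQ1OT1, chr11:2661768-2661797 on the minus strand: aaaaaggaaatcccagtgctttggggggcc

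The signal AATAAA was found in the last 50 bases of MALAT1, NEAT1 and TUG1, and its variant ATTAAA in those of MIAT. Neither was found there in OIP5-AS1 or KCNQ1OT1. Of 9688 tested records with an annotated transcript, 65.0% held AATAAA, 18.6% held ATTAAA and 80.0% held either in the same window, read on the transcript's strand only. The annotation extends both OIP5-AS1 and KCNQ1OT1 beyond the end of their records. It also extends 2 genes whose records hold AATAAA, MALAT1 to position 65275544 and NEAT1 to position 65213011.

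MALAT1 has a further run of A inside its record, which is shown because the mature nuclear RNA is known to end there rather than at a poly(A) tail. RNase P cuts just after it, the small tRNA-like mascRNA is released, and the run folds into a triple helix with U-rich stretches upstream. The run is in capitals.

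MALAT1, chr11:65273569-65273598 on the plus strand: AAAAAAAAAAAAAgcaaaagatgctggtgg

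The run is 13 bases long, and it ends 358 bases before the end of the MALAT1 record. The 30 bases before it hold 2 runs of 5 or more T. A run of 13 A in the last 500 bases was found in 274 of 9688 tested records (2.83%), and also in KCNQ1OT1, whose longest run there was 16. The longest such run in NEAT1, TUG1, MIAT and OIP5-AS1 was 5. The tables do not show by which run of A a molecule was captured.

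The FPKM tables hold no read counts. Low values at olfactory receptor records of 1 exon stepped by the worth of 1 read, from which 1.37e+07 to 2.26e+07 reads were recovered for the control libraries and 2.09e+07 to 2.59e+07 reads for the lyophilized ones. The reads of the lyophilized library divided by those of its control came to 1.90 in pair 1, 1.33 in pair 2 and 0.923 in pair 3. All 10 B cell markers examined had a mean FPKM above 1, and 0 of 5 T cell, 0 of 4 myeloid and 0 of 4 fibroblast markers did, with 0.607 FPKM as their highest value in any sample. CD3G and DCN were listed at 0 in every sample. In RNA from bulk cells, fewer cells and less RNA per cell cannot be told apart.

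The lncRNAs covered a range of levels from NEAT1 to KCNQ1OT1. FPKM is a level per length, so the records can be ranked within a sample. Capture by poly(A) selection and reads of overlapping genes also enter the values, so these are ranks in the library, not in the cell. NEAT1 stood first in 5 of 6 samples and was the third in lyophilized 1, where OIP5-AS1 stood first. TUG1 was the fourth, MIAT the fifth and KCNQ1OT1 the sixth in all 6 samples. The control means were 57.4 ± 9.51 FPKM for NEAT1, 29.4 ± 3.99 for MALAT1, 28.7 ± 2.95 for OIP5-AS1, 20.2 ± 3.31 for TUG1, 1.4 ± 0.332 for MIAT and 0.128 ± 0.0116 for KCNQ1OT1 (SD, n = 3). MALAT1 and OIP5-AS1 did not differ beyond their spread in the controls. NEAT1 had a higher mean over the 6 samples than 86.1% of the 11134 genes tested, and MIAT a higher one than 3.23% of them. KCNQ1OT1 was below the filter, which asks for a group mean over 1 FPKM in either group, so 5 of the 6 lncRNAs entered the test. MIAT entered it through its control mean only, and a count over the 5 is no account of all 6.

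**Figure D1:**
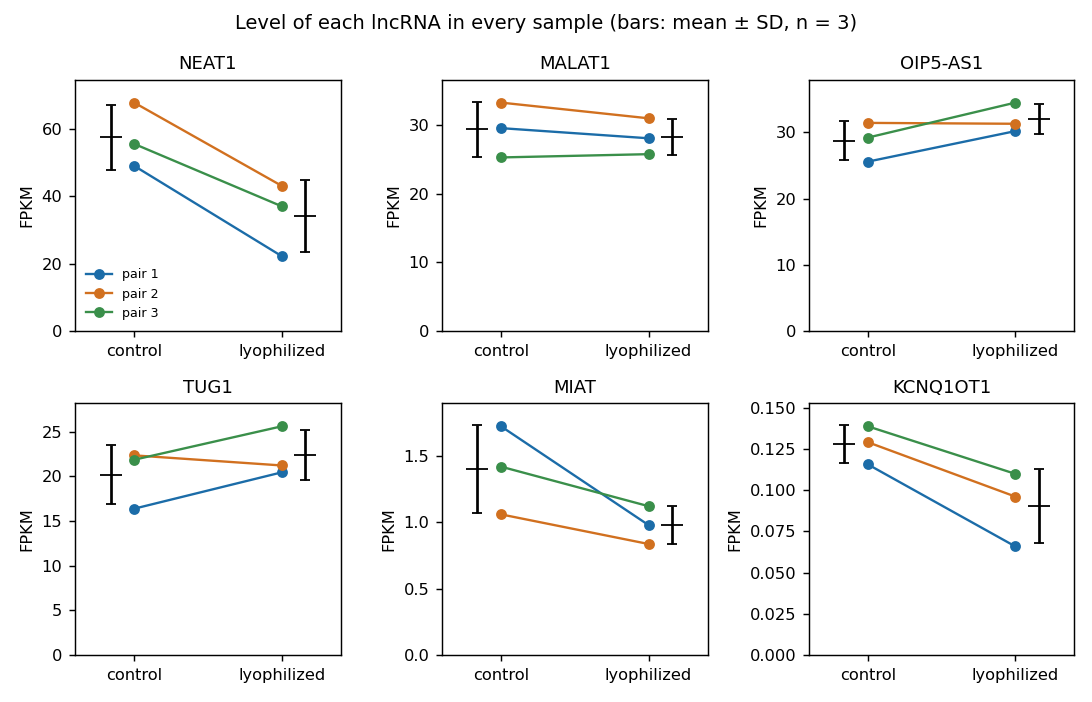
FPKM of each lncRNA (vertical axes, each from 0) in the control and lyophilized sample of every pair, joined by a line, with the mean ± SD of each group (n = 3) beside the points. All 3 lines fall for NEAT1, from 49.0 to 22.2 FPKM in pair 1, and also for MIAT and KCNQ1OT1, while those of MALAT1, TUG1 and OIP5-AS1 do not share 1 direction.

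Whether lyophilization and storage changed these lncRNAs was tested with limma on log2(FPKM + 0.1), a scale that understates the change of low genes, over all tested genes with Benjamini-Hochberg adjustment and a threshold of 0.05. With the condition as the only term, 0 of the 5 lncRNAs passed in either direction. Among all 11134 genes, 0.557% were called lower and 0.018% higher in the lyophilized samples. At an unadjusted p below 0.05, 1 of the 5 passed, NEAT1, against 1573 of all genes (14.1%). The labels pair the samples, and with the pair as a block 14.9% of genes were called lower and 15.9% higher. In that fit 1 of the 5 lncRNAs, NEAT1, was called lower and 0 higher, while 3 passed an unadjusted p of 0.05, NEAT1 and MIAT lower and OIP5-AS1 higher, against 44.8% of all genes in either direction. With condition alone the p-values measure the spread between the 3 samples a group. With the block they measure the spread left between the differences of the 3 pairs. Both fits borrow spread from all genes, and all samples are from 1 cell line.

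NEAT1 was the lncRNA with the largest difference. It measured 49.0, 67.7 and 55.5 FPKM in control samples 1 to 3, and 22.2, 43.0 and 36.98 FPKM in lyophilized samples 1 to 3. Every lyophilized sample was below every control, and lyophilized 1 was the lowest. The differences within pairs 1 to 3 were -54.6%, -36.4% and -33.3%. Non-overlap in that direction was seen for 12.6% of all tested genes, and a lower value in all 3 pairs for 28.8%.

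The mean level of NEAT1 was 34.1 ± 10.7 FPKM (SD, n = 3) after lyophilization against 57.4 ± 9.51 in the controls, 1.68 times higher in the controls. The log2 fold change was -0.79 ± 0.247 (SE), with an adjusted p of 0.219 for the condition alone. With the pair as a block the same fold change had an SE of 0.0956 and an adjusted p of 0.000897. With the block but no filter on low values, over 18203 genes, NEAT1 did not pass (adjusted p = 0.0559). Of all tested genes, 1.31% had a more negative fold change. Leaving out pair 1 from the blocked fit gave -0.62, leaving out pair 2 -0.86 and leaving out pair 3 -0.89, and NEAT1 passed the threshold in each of these 3 fits, which kept the filter and borrow their spread from all genes. Without lyophilized 1 in the fit of condition alone, the fold change was -0.51.

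The NEAT1 record covers chr11:65190269-65194003 on the plus strand, 3735 bases. This is the short isoform, which ends at the AATAAA shown above. The annotated NEAT1 gene runs on to position 65213011, a span of 22767 bases, and the long isoform that builds paraspeckles is known to end in a triple helix and not in a poly(A) tail. Since both isoforms share their first part, reads of either fall in this record, and the long isoform alone has no record here. The record had about 2363, 4499 and 4431 reads for the controls and 2032, 3818 and 2728 in the lyophilized libraries. The ratio of lyophilized to control was 0.454 in pair 1 (95% exact interval 0.427 to 0.482), 0.636 in pair 2 (0.609 to 0.664) and 0.667 in pair 3 (0.635 to 0.70). The interval of pair 1 lies below those of the others, and all such intervals cover counting error only.

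MALAT1 stayed close to its control level in each pair. It measured 29.5, 33.3 and 25.3 FPKM without lyophilization and 28.1, 31.0 and 25.8 FPKM after it, and the groups overlapped. Its ratio of lyophilized to control was 0.95 in pair 1 (95% exact counting interval 0.911 to 0.991), 0.931 in pair 2 (0.898 to 0.966) and 1.02 in pair 3 (0.978 to 1.06). The log2 fold change was -0.05, with a 95% interval of -0.37 to 0.27 and an adjusted p of 0.888 for the condition alone. With the pair as a block the interval was -0.19 to 0.09. The MALAT1 record spans chr11:65265233-65273939 on the plus strand, 8707 bases in 1 exon. The antisense gene TALAM1 covers 82.2% of it, and reads of the 2 strands cannot be told apart with this library kit.

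TUG1 and OIP5-AS1 moved alike between the groups, and neither passed with condition alone or with the pair as a block. TUG1 measured 16.4, 22.3 and 21.8 FPKM without lyophilization and 20.4, 21.2 and 25.6 FPKM after it. OIP5-AS1 measured 25.6, 31.4 and 29.2 FPKM without lyophilization and 30.2, 31.3 and 34.5 FPKM after it. For both the groups overlapped, with higher values after lyophilization in pairs 1 and 3 and a slightly lower one in pair 2. The log2 fold change was 0.16 for both, with an interval of -0.21 to 0.52 for TUG1 and of -0.12 to 0.44 for OIP5-AS1. The adjusted p was 0.667 for TUG1 and 0.565 for OIP5-AS1, and with the pair as a block it was 0.166 and 0.104. The blocked interval was -0.03 to 0.34 for TUG1 and 0.004 to 0.31 for OIP5-AS1, the latter just above 0. Without pair 2 the blocked fit called both higher, at 0.27 for TUG1 and 0.24 for OIP5-AS1, in a fit that called 28% of all genes higher. With GC content also removed, as described further on, neither was called without pair 2 (0.07 and -0.12).

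TUG1 lies at chr22:31365634-31375380 and OIP5-AS1 at chr15:41576201-41591795, both on the plus strand and spliced. Every 75-base stretch of the TUG1 sequence was found once in the genome, while 54 of 1598 stretches of OIP5-AS1 (3.38%) were found elsewhere too. The authors state that only uniquely mapped reads were kept, so reads lying in those stretches would be lost, which was not checked. An unnamed annotated gene on the same strand spans nearly all of the OIP5-AS1 record, and its reads would count there as well. Another, on the minus strand, covers 23.9% of the TUG1 record, and the library kit does not mark strand.

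MIAT was low in every sample and lower after lyophilization in all 3 pairs. It measured 1.72, 1.06 and 1.42 FPKM without lyophilization and 0.979, 0.836 and 1.12 FPKM after it. Lyophilized 3 was above control 2, so the groups overlapped. The pair differences were -43.2%, -21.1% and -21.0%. The log2 fold change was -0.46 ± 0.237 (SE), with an adjusted p of 0.413 for the condition alone and 0.0691 with the pair as a block, so it passed in neither. MIAT lies at chr22:27053446-27072440 on the plus strand, and the neighbouring lncRNA gene MIATNB covers 19.6% of its span. An unnamed annotated gene on the minus strand covers 26.1% of it, and the library kit does not mark strand.

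KCNQ1OT1 was the lowest of the 6. It measured 0.116, 0.129 and 0.139 FPKM without lyophilization and 0.0658, 0.0961 and 0.110 FPKM after it. Each lyophilized sample was below each control, with pair differences of -43.1%, -25.6% and -20.8%. The record is long, so these levels rest on about 94, 144 and 186 reads for the controls and 101, 143 and 136 in the lyophilized libraries, a counting error of 7.33% to 10.3%. The ratio of lyophilized to control was 0.567 in pair 1 (95% exact interval 0.424 to 0.759), 0.744 in pair 2 (0.586 to 0.944) and 0.792 in pair 3 (0.63 to 0.993). All 3 intervals lie below 1 for counting error alone.

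In a fit without the filter on low values, KCNQ1OT1 had a log2 fold change of -0.26, shrunk by the pseudocount, with an adjusted p of 0.525 for the condition alone. With the pair as a block its adjusted p was 0.258, in a fit that called 2.2% of 18203 genes lower, and it did not pass. KCNQ1OT1 spans chr11:2661768-2721228 on the minus strand, 59461 bases, all of it inside KCNQ1, a potassium channel gene on the plus strand. The annotated transcript is longer still, 91667 bases. The record of KCNQ1 itself held 0.0606, 0.0564 and 0.0625 FPKM without lyophilization and 0.232, 0.0422 and 0.0846 FPKM after it. The kit does not mark strand, so intron reads of KCNQ1 and reads of KCNQ1OT1 cannot be told apart.

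The lncRNAs were then compared with each other within samples, which removes what scales a whole library. With the pseudocount this holds only in part for the low MIAT and KCNQ1OT1. On the log2(FPKM + 0.1) scale, the log2 ratios of the control and lyophilized samples did not overlap for 7 of the 15 pairs of lncRNAs. These 15 ratios share 6 lncRNAs and are not separate results, and the share over pairs of other genes was not computed. Without the pseudocount this held for 6 pairs, of which NEAT1 was in 3, against MALAT1, TUG1 and OIP5-AS1. The exact two-sided permutation test of 3 samples against 3 cannot go below p = 0.1, which the 7 reached (adjusted over 15 pairs, 0.214). The log2 ratio of MALAT1 to NEAT1 was -0.73, -1.02 and -1.13 for the 3 controls and 0.34, -0.47 and -0.52 after lyophilization. The mean ratio thus went from -0.96 to -0.22, a difference of 0.74. Against TUG1 and OIP5-AS1, the log2 ratio of NEAT1 differed by -0.95 each time. The ratio of NEAT1 to KCNQ1OT1 differed by -0.53 on that scale, where the pseudocount is as large as KCNQ1OT1 itself, and by -0.27 without the pseudocount, with overlapping groups. Against MIAT NEAT1 differed by -0.33, also with overlap. The ratio of TUG1 to OIP5-AS1 was -0.52 in both groups.

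Over the 6 samples, log2 levels of TUG1 and OIP5-AS1 correlated at r = 0.952 and those of NEAT1 and KCNQ1OT1 at 0.923, while NEAT1 and MALAT1, which are neighbours on chromosome 11, correlated at 0.338. These are descriptions over 6 samples that share libraries, depth and condition. The 6 lncRNAs together held 0.0290% ± 0.00462 of all FPKM in control samples and 0.0237% ± 0.00349 after lyophilization (SD, n = 3; exact permutation test, two-sided, p = 0.3).

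The base composition of a transcript moved with its fold change across all genes. The median log2 fold change was 0.28 for the 1575 genes whose matched transcript had 35 to 40% GC, 0.04 at 45 to 50% and -0.25 at 60 to 65%. The matched transcripts had 38.6% GC in OIP5-AS1, 42.0% in MALAT1, 43.1% in TUG1 and 43.7% in KCNQ1OT1, below the median of 47.9% over tested genes, and 48.4% in NEAT1 and 51.8% in MIAT, above it. For OIP5-AS1 the match is a transcript of 8881 bases that runs past the record, whose own annotated exons hold 1894 bases at 43.3% GC. TUG1 at 0.16 lay near the median of 0.18 for genes of 40 to 45% GC, and MALAT1 at -0.05 lay below it. OIP5-AS1 at 0.16 lay below the 0.28 of the range of its matched transcript and near the 0.18 of the range of its record. NEAT1 at -0.79 lay far below the 0.04 of its own.

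**Figure D2:**
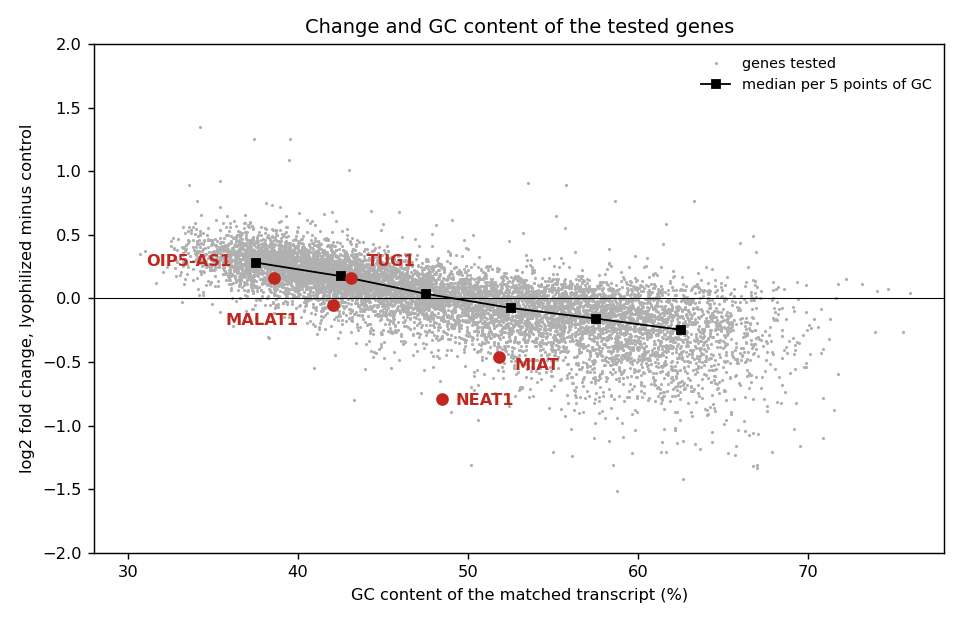
GC content of the matched transcript in percent (horizontal axis) against log2 fold change, lyophilized minus control (vertical axis), for tested genes with an annotated transcript (grey points), with the median of each 5-point range of GC (black squares) and the 5 tested lncRNAs (red). The medians fall from 0.28 to -0.25, and NEAT1 at -0.79 lies far under the median of 0.04 for its range.

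A blocked fit in which a curve over GC content was removed from each sample gave other values for MALAT1, TUG1 and OIP5-AS1. It called 8.11% of 9688 genes lower, and 2 of the 5 lncRNAs, NEAT1 and MALAT1. NEAT1 kept its fold change, at -0.79 with an adjusted p of 0.00163. MALAT1 went to -0.23 with an adjusted p of 0.0219, and it passed without pair 2 but not without pair 1 (0.0604) or pair 3 (0.072). OIP5-AS1 turned from 0.16 to -0.11 (adjusted p = 0.110) at the GC of its matched transcript, but came to 0.02 (adjusted p = 0.817) at that of its record. With each lncRNA at the GC of its record, MALAT1 was at -0.27 (adjusted p = 0.0124), NEAT1 at -0.80 (adjusted p = 0.00164) and TUG1 at -0.03. At the GC of the matched transcripts, TUG1 came to 0.01 and MIAT to -0.37 (adjusted p = 0.130). When transcript length was removed along with GC, 4.27% of genes were called lower. NEAT1 then stood at -0.78 with an adjusted p of 0.00618, while MALAT1 at -0.22 no longer passed (adjusted p = 0.0595).

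**Figure D3:**
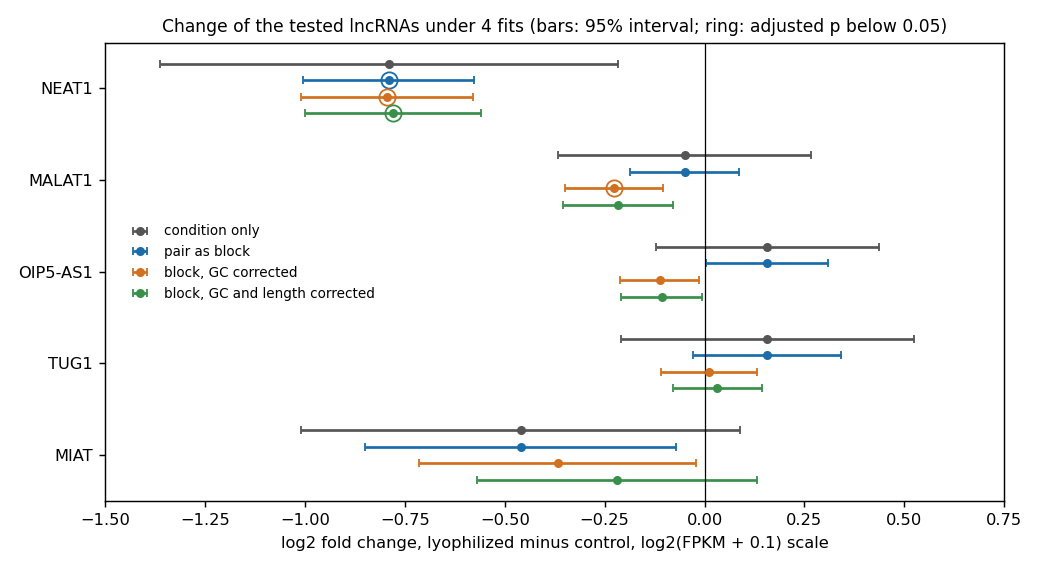
Log2 fold change, lyophilized minus control (horizontal axis), of the 5 tested lncRNAs under 4 fits, with 95% intervals, and a ring where the adjusted p was below 0.05. NEAT1 stays between -0.79 and -0.78 and is ringed in the 3 fits with the pair as a block, and OIP5-AS1 changes sign once GC content is removed at the value of its matched transcript.

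Proteins that build or process these RNAs were counted from lists, by the mRNA of each protein. Over all tested genes the block called 14.9% lower and 15.9% higher. With the GC correction it called 8.11% lower and 10.4% higher, and every list below is set beside these shares. All 16 paraspeckle proteins were tested, and their median log2 fold change was 0.04, as for all genes (0.04). By limma with the condition alone 0 of 16 passed in either direction (2 at an unadjusted p below 0.05), and with the pair as a block 3 were lower and 4 higher. The 3 that fell in the blocked fit included SMARCA4, a chromatin remodelling ATPase, at -0.45 (adjusted p = 0.00124), and RBM14, needed to form paraspeckles, at -0.35 (adjusted p = 0.00687). After the GC correction SMARCA4 was at -0.18 (adjusted p = 0.0353) and RBM14 at -0.23 (adjusted p = 0.0144), smaller but still called. HNRNPK, an abundant hnRNP protein, was at 0.16 (adjusted p = 0.0474), and at -0.03 after the GC correction (adjusted p = 0.588). That correction, which called 10.4% of all genes higher, left 5 lower and 0 higher (1 higher at an unadjusted p below 0.05).

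Of 10 nuclear speckle proteins, SRRM2, a large scaffold of speckles, was called lower in the fit of condition alone, which called 0.557% of all genes lower. In that fit 0 genes were called with no filter on low values, and 0 without any 1 sample. SRRM2 measured 69.4, 79.2 and 82.1 FPKM without lyophilization and 35.2, 37.6 and 40.04 FPKM after it, so the groups stood well apart. Non-overlap in that direction was seen for 12.6% of all tested genes. The log2 fold change of SRRM2 was -1.03 (adjusted p = 0.0367, and 0.000197 in the blocked fit corrected for GC). With the pair as a block 2 of 10 were lower and 1 higher, the latter BCLAF1, an RNA-binding protein of speckles, at 0.45 (adjusted p = 0.00756). After the GC correction BCLAF1 was at 0.14 (adjusted p = 0.111), and 2 of 10 were lower and 0 higher. SRSF2, the splicing factor by which speckles are often stained, was at 0.01 (adjusted p = 0.870 in the blocked fit). The list's median was -0.04.

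For 15 genes of MALAT1 3′ end maturation and m6A methylation (RNase P subunits, RNase Z and the methyltransferases) the median was 0.15. By limma 0 passed with condition alone (0 at an unadjusted p below 0.05), and 0 were lower and 5 higher with the block (0 and 6 unadjusted). METTL14, partner of the m6A methyltransferase METTL3, was at 0.48 (adjusted p = 0.0193) and RPP40, an RNase P subunit, at 0.31 (adjusted p = 0.0454) in the blocked fit. POP5, another RNase P subunit and the most abundant of the list, was at 0.15 (adjusted p = 0.115). After the GC correction METTL14 was at 0.20 (adjusted p = 0.136) and RPP40 at 0.16 (adjusted p = 0.189), neither called, and 1 of 15 was lower and 4 higher. For 21 genes of the nuclear exosome and its cofactors, which degrade nuclear RNA, the median was 0.20. By limma 0 passed with condition alone (2 at an unadjusted p below 0.05), and with the block 1 was lower and 8 higher. Over all genes the block called 14.9% lower and 15.9% higher. The median GC was 42.75% for this list and 47.58% for the one before it. The median fold change was 0.18 over genes of 40 to 45% GC and 0.04 at 45 to 50%. SKIV2L2 (MTR4), the helicase that feeds the exosome, was at 0.49 (adjusted p = 0.00829) and RBM7, of the nuclear exosome targeting complex, at 0.43 (adjusted p = 0.00864). EXOSC7, a subunit of the exosome core, was at 0.04 (adjusted p = 0.612). After the GC correction RBM7 was at 0.13 (adjusted p = 0.164), SKIV2L2 had no matched transcript, and 1 of 19 was lower and 2 higher.

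The histone and DNA methylation factors linked to KCNQ1OT1 were mixed. Of 9 listed, 8 were tested, with 0 called for the condition alone (0 unadjusted), 3 lower and 2 higher under the block and 1 each way after the GC correction. Over all genes the block called 14.9% lower and 15.9% higher, and with the GC correction 8.11% lower and 10.4% higher. SUZ12, of Polycomb repressive complex 2, was at 0.38 (adjusted p = 0.0122), DNMT1, the maintenance DNA methyltransferase, at -0.33 (adjusted p = 0.0046) and RBBP7, a histone-binding protein, at 0.14 (adjusted p = 0.0791), all in the blocked fit. After the GC correction SUZ12 was at 0.11 (adjusted p = 0.194) and DNMT1 at -0.19 (adjusted p = 0.0431). In a list of 37 other well-known lncRNAs 25 were tested, with a median of 0.11, and by limma 0 were called for the condition alone (0 unadjusted), while 2 were lower and 4 higher under the block. The small nucleolar RNA host genes SNHG6 at 0.28 (adjusted p = 0.00245), SNHG5 at 0.28 (adjusted p = 0.00997) and SNHG8 at 0.16 (adjusted p = 0.0237) were among the 4. After the GC correction SNHG6, SNHG5 and SNHG8 were at 0.06, 0.06 and 0.10, none of them called (adjusted p = 0.588, 0.686 and 0.238), and other genes made up the 2 lower and 2 higher of 24.

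**Figure D4:**
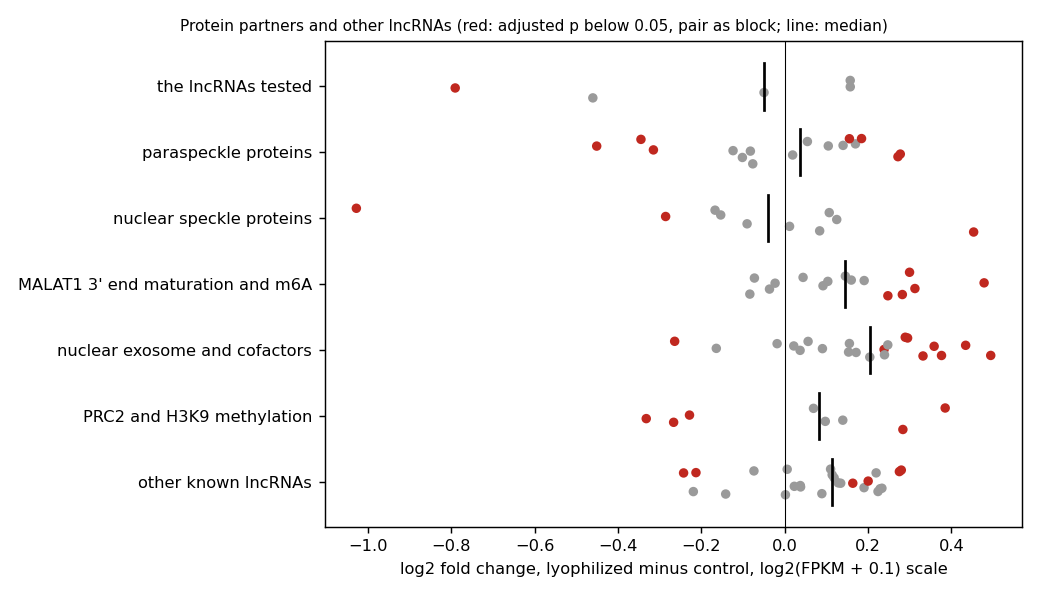
Log2 fold change, lyophilized minus control, with condition alone (horizontal axis) of the 5 tested lncRNAs and of the genes of each list (points), red where the adjusted p with the pair as a block was below 0.05, and a line at each median. NEAT1 at -0.79 and SRRM2 at -1.03 lie farthest to the left, and the medians of the lists lie between -0.04 and 0.20.

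Other genes lie within 50 kb of the lncRNAs. Near NEAT1, SLC25A45, a mitochondrial carrier gene 40.1 kb away, measured 8.13, 9.26 and 9.92 FPKM without lyophilization and 4.61, 6.55 and 6.00 FPKM after it. Its groups did not overlap, as for 12.6% of all tested genes in that direction. Its log2 fold change was -0.67 (adjusted p = 0.131 for condition alone, 0.00169 with the block and 0.00406 after the GC correction). FRMD8, 9.27 kb from NEAT1, was at -0.29 (adjusted p = 0.0185 with the block), but at -0.02 after the GC correction (adjusted p = 0.852). The record of the microRNA MIR612, which lies in the part of the NEAT1 gene that only the long isoform covers, was listed at 0 in 5 samples and at 19.9975 FPKM in lyophilized 3.

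Near MALAT1, LTBP3 was at -0.23, and it passed neither with condition alone nor with the block. Near TUG1, MORC2, which starts 1.45 kb from it, was at -0.08 and MORC2-AS1 at -0.12, and neither passed. Near OIP5-AS1, OIP5 was at 0.16, CHP at 0.05 and NUSAP1, a spindle protein gene, at 0.25, of which NUSAP1 passed with the block (adjusted p = 0.0138) and after the GC correction (adjusted p = 0.0131). CRYBA4 and CRYBB1, near MIAT, were at most 0.369 FPKM in any sample.

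The genes whose log2 levels over the 6 samples were most like each lncRNA were taken by Pearson's r, as a description in points that share libraries and depth. For NEAT1 these were ARL16 (r = 0.997), NSUN5P2 (0.996) and ABCB6 (0.995), with 414 tested genes above 0.9. For MALAT1 they were PRKCDBP (0.984), HAGH (0.971) and RAB15 (0.966), with 30 genes above 0.9. TUG1 went with EIF2AK2, TNIK and XPR1 (each 0.996) and 850 genes above 0.9, and OIP5-AS1 with SCAF11 (0.998), N4BP2 (0.997) and LANCL1 (0.996) and 1238 such genes. MIAT went with CYTH2, GPR132 (both 0.99) and TBC1D20 (0.986), and KCNQ1OT1 with ZDHHC7 (0.994), C20orf94 (0.993) and SMARCC2 (0.991). With 6 samples many genes reach such values, and the pattern of MALAT1 was shared by the fewest.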

How the data were processed

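The values are FPKM that the authors computed with Cufflinks (version and gene annotation not given in the sources used here) from reads mapped to hg19 (GRCh37) with TopHat2 2.0.7, keeping uniquely mapped reads, and deposited as 1 table per sample with 24934 records. CASAVA 1.4 is named in the submitters' processing notes. The lncRNAs and the gene lists were chosen with earlier results of these data known. From the deposited FPKM, 1 record per symbol was kept (highest mean; 543 symbols had more than 1 locus), 1622 small RNA symbols were left out of the test, and the 11134 genes whose mean passed 1 FPKM in either group were compared. The test was limma 3.58.1 (R 4.3.3), applied to log2(FPKM + 0.1) with the trend option, condition as the only term and Benjamini-Hochberg adjustment, as the study's own test was also unpaired. The fits were checked on simulated data.

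The pairing comes from the labels. Deviations from the group means correlated within pairs 1 to 3 at 0.716, 0.603 and 0.476 over 11134 genes. GC content and length came from GENCODE transcripts lifted to GRCh37 for 9688 of the 11134 genes (87.0%) and for all 6 lncRNAs, and were removed by loess (span 0.3, degree 2). Named genes were the 6 lncRNAs, all records within 50 kb, and from each list the 2 with the largest absolute fold change and the 1 with the highest mean FPKM; 3 genes most like each lncRNA were added. Some genes under these rules are not reported here. Reads were recovered from single-exon records with a fragment length of 202. Of 127 values below 20 reads, 81 set the step of 1 read, and 37 of the other 46 came out whole within 0.02 reads. Scripts ran in Python 3.11.15 with scipy 1.17.1, pandas 2.3.3, numpy 2.4.6, and figures came from matplotlib 3.10.9. The alternatives covered the pseudocount, filter, scaling, trend, block, corrections, record choice and each replicate left out. No read-level or isoform data were used.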

Additional observations from a re-analysis of the deposited data

How the results depend on the processing

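The count of called genes, 64 with condition alone, became 0 with no filter on low values, 34 with a mean above 5, 3423 with the replicate block, 1790 with the block and GC correction, 848 with block, GC and length, and, chosen after seeing the data, 466 with no filter and block and 1128 with no filter, block and GC. With each lncRNA at the GC of its record, also added, 1790 genes and 2 lncRNAs were called with the filter and 1129 and 2 without. Without any 1 sample it was 0 in each case (879 to 2098 genes at an unadjusted p below 0.05), and without pair 1, 2 or 3 it was 2194, 5359 and 1264 with the block and 1714, 2117 and 750 with block and GC, also added after seeing the data; 1 residual degree of freedom is left there and the spread comes from all genes. The count of called lncRNAs, 0 with condition alone, became 1 with the block, 2 with block and GC, 1 with block, GC and length, 1 with no filter, block and GC, and from 1 to 3 without 1 pair. It was 0 again with no filter and block, where NEAT1 missed the threshold (adjusted p = 0.0559). NEAT1 stayed negative under all 27 alternatives, from -0.99 to -0.51, and MIAT under all 26, from -0.63 to -0.22. OIP5-AS1 turned negative in the fits corrected at the 38.6% GC of its longer matched transcript (-0.11 with GC, -0.11 with GC and length, -0.061 with no filter, and -0.092, -0.12 and -0.13 without pair 1, 2 or 3), and stayed positive at the 43.3% of its record (0.02, and 0.05 with no filter). TUG1 turned to -0.022 and -0.010 without pair 1 or 3 in fits with the GC correction, and to -0.033 at the GC of its record, and MALAT1, from -0.15 to 0.044 without 1 sample, to 0.044 without control 2 and 0.015 without lyophilized 3; the cause was not tested. Of 15 ratios between lncRNAs, 14 moved 1 way in all 3 pairs, and the 7 without overlap became 6 with a pseudocount of 1, 6 with none and 7 to 9 without 1 sample. These ratios share 6 lncRNAs, and such counts were not computed for ratios of other genes. The share of the 6 lncRNAs differed by -0.00526 percentage points, by -0.00755 to -0.00293 without 1 sample, with p = 0.25 when signs were flipped within the 3 pairs (exact permutation test), the smallest it allows. With all samples, the filter on low values and no correction for GC or length, the block changed the call of NEAT1 only. KCNQ1OT1 rests on 94 to 186 reads a library; reads of the spliced TUG1, MIAT and OIP5-AS1 records were not recovered.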
